A study of Mus musculus with 20 samples.

Results

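The solute carrier (SLC) genes of mouse CD8 T cells were followed from the naive state through 3 days of stimulation. Members were the genes whose symbol starts with Slc and a number, with Slc2a1, Slc7a5 and Slc3a2 set apart. Of 148 such genes on the array (182 probe sets), 106 were kept and 42 were left out. To be kept, a gene's brightest probe set had to exceed the 40th percentile of intensity on 3 or more of the 13 naive and 48 h arrays. The same filter kept 6279 of all 8251 genes. The rule used brightness and no direction of change, but 5 members (Slc10a6, Slc12a5, Slc15a2, Slc22a2 and Slc34a1) would not have passed without their naive arrays. All 5 were among the genes called lower in stimulated cells below, and their fall is partly built into the rule. Slc25a10, Slc35a1, Slc7a6 and Slc9b2, called higher below, had 0 naive arrays above the percentile and passed through 48 h arrays alone. Slc35e4 (1 naive array) and Slc16a1, Slc19a1, Slc37a4 and Slc39a9 (2 each), also called higher, needed 48 h arrays to pass. Their rises are partly built into the rule in the same way. Just inside the rule, with 4 arrays above the percentile, stood Slc22a2, Slc30a1, Slc9b2, Slc12a5 and Slc25a14, with median intensities of 85.9 to 121.6. Just outside, with 2 arrays, stood Slc33a1, Slc4a4, Slc12a1, Slc2a4 and Slc22a23, at 72.9 to 95.2. Slc7a7, Slc7a11, Slc16a7, Slc29a2 and Slc46a1 were on the array and did not pass. Slc4a1ap (an adaptor protein), Slc9a3r1 and Slc9a3r2 (scaffold proteins) carry the name but are not transporters. They stay in the counts.

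By the labels, all cells were CD8 T lymphocytes of C57Bl6 mice aged 6 to 8 weeks that carry the OT-1 T cell receptor transgene. Every group, controls included, thus shares this receptor of fixed specificity, and markers of other cells are given below. Per the labels' protocols, cells low in CD44 were enriched from lymph nodes by depletion of other cells, and cultures received human IL-2. The naive group (0 h, 3 arrays) had no stimulus. The Ag-B7 groups met the ovalbumin peptide on H-2Kb together with B7-1 on latex beads, for 24 h (1 array), 48 h (4 arrays) or 72 h (1 array). Ag-B7+IL12 and Ag-B7+IFNa/b added murine IL-12 or universal type I interferon, each with 1 array at 24 h, 3 at 48 h and 1 at 72 h. Ag-B7+TSA added trichostatin A, a histone deacetylase inhibitor, for 72 h on 1 array. No group was cultured without stimulus. In differences from naive cells, antigen and B7 therefore cannot be told apart from time in culture and IL-2. Replicates are labelled as biological. The labels do not say whether a replicate is a separate mouse or a separate culture, so p-values measure the spread between these samples. The design text asks how expression in naive cells, in cells with antigen and B7, and in cells with a cytokine as well differs over the 3 days.

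Solute carriers are membrane proteins that move nutrients, ions, nucleosides, vitamins and metals across the plasma membrane or between cell compartments. Families are numbered by sequence, so SLC25 proteins sit mostly in the inner mitochondrial membrane, SLC35 proteins carry nucleotide sugars into the Golgi and endoplasmic reticulum (ER), SLC39 proteins bring zinc into the cytosol and SLC30 proteins take it out. A resting T cell imports little. After activation it grows and divides, and is known for a higher uptake of glucose and amino acids.

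The deposited values were MAS5 intensities, each array scaled to a common mean. Values below are log2(intensity + 46.39), called log2 values, and a difference of 1 is 2-fold. A gene was called when its limma p, adjusted over the 6279 genes, was under 0.05. The arrays' median intensity ran from 364 to 507 in naive cells and from 232 to 341 in stimulated cells. The naive arrays were also the least alike: replicate correlations over the 106 members were 0.790 to 0.918 among naive arrays and 0.899 to 0.943 within each 48 h group. The 3′ to 5′ signal ratio of actin, a sign of RNA quality, was 1.13, 2.06 and 1.61 on naive replicates 1, 2 and 3 and 1.00 to 1.15 on stimulated arrays. Of 34 control probe sets with no target in the sample, 29 were dimmer at 48 h in Ag-B7 than in naive cells, with a median difference of -0.82. Markers of CD8 T cells were present in every group, with summed intensities of 74368 to 133612 in naive cells and 66854 to 102431 at 48 h.

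After 48 h with Ag-B7, 24 solute carriers were higher and 45 were lower than in naive cells. Among all genes tested 26.1% were higher and 35.6% lower, so the members' share of rises, 22.6%, was near the background and their share of falls, 42.5%, stood somewhat above it, a gap that was not tested. Among the 101 members that passed on their stimulated arrays alone, 40 were lower (39.6%). The members' median difference was -0.53 against -0.23 over all genes. The rises included importers of nucleosides, folate, copper, zinc, glutamine and glucose, mitochondrial carriers and Golgi carriers. The falls were spread over amino acid, ion, organic ion and choline carriers, and metal and mitochondrial carriers fell about as often as they rose (5 of each fell, 6 and 5 rose).

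**Figure D1:**
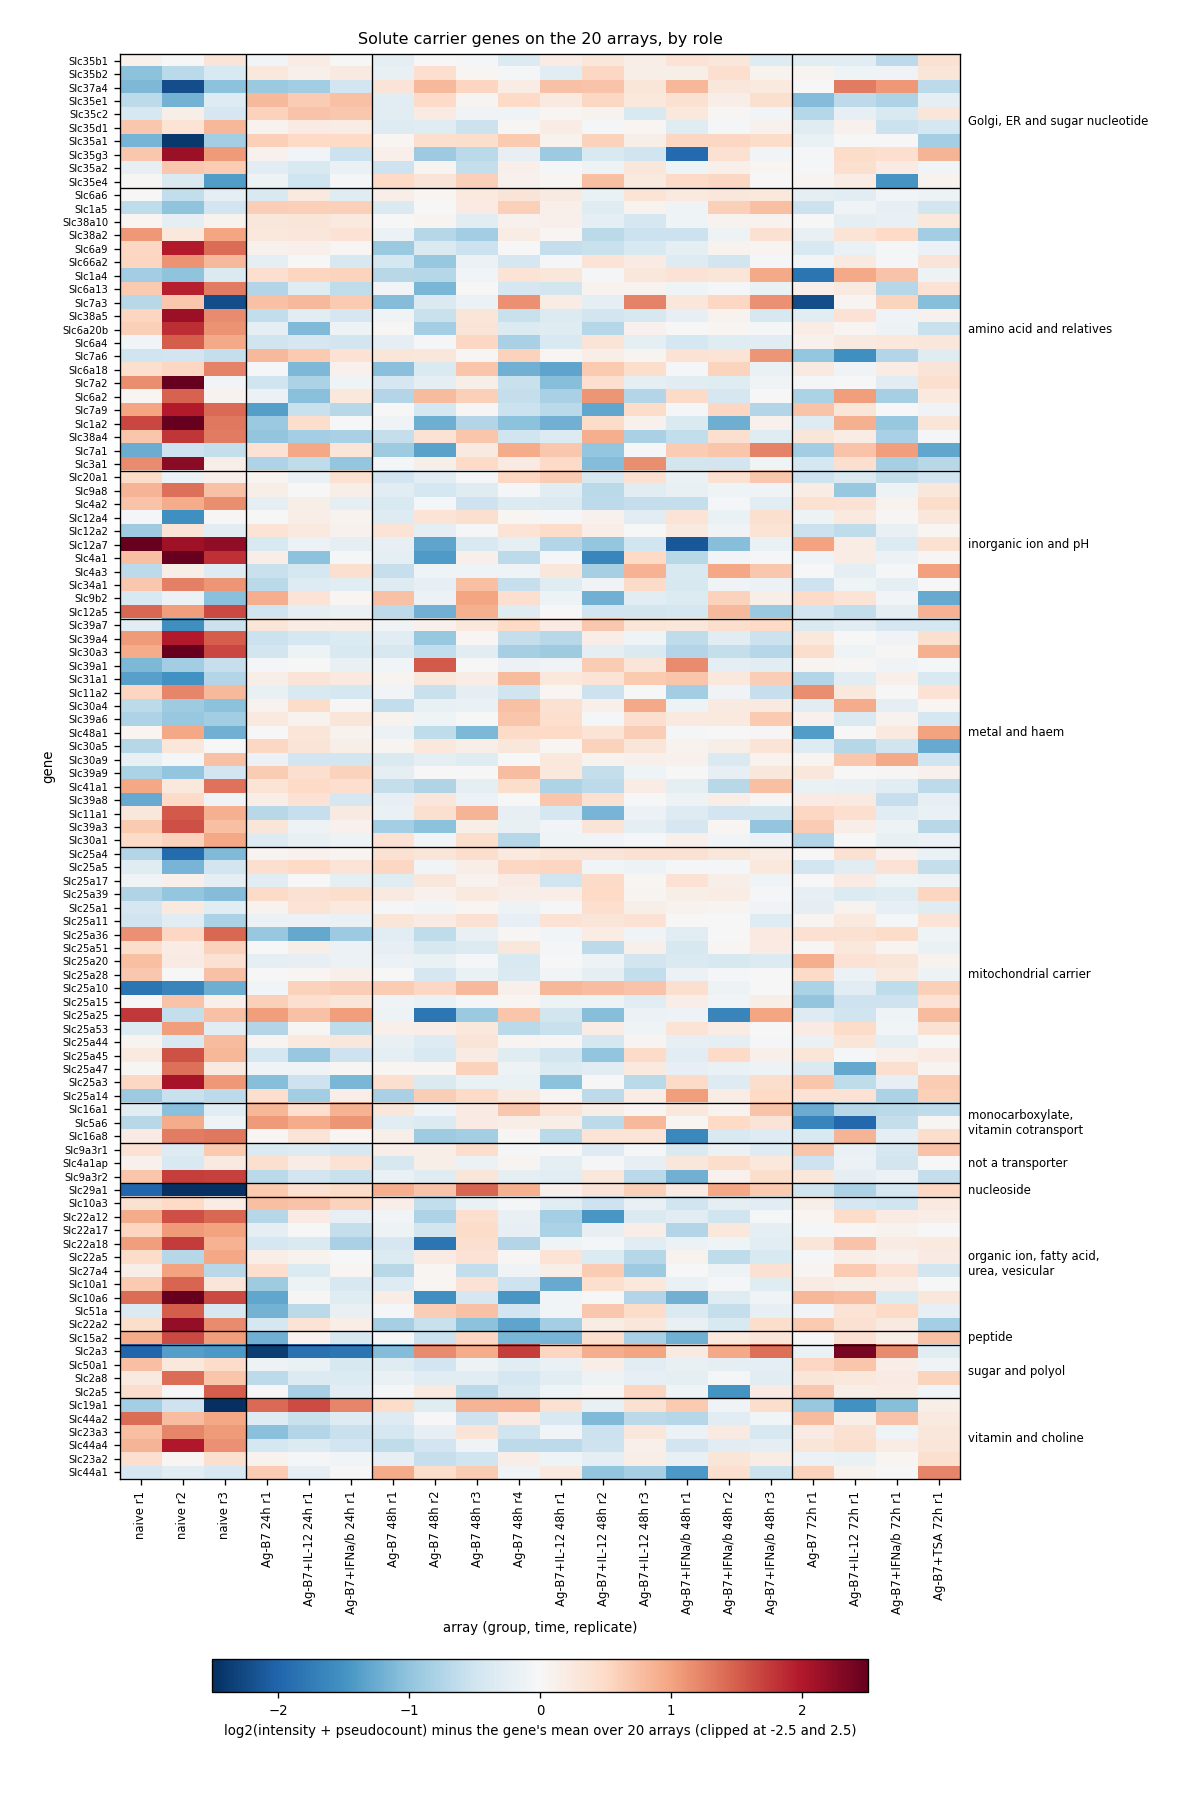
Heat map of the 106 solute carrier genes (rows, grouped by role) on the 20 arrays (columns, by group, time and replicate). Colour is the log2 value minus the gene's mean over the 20 arrays; the 3 naive arrays stand apart from the 17 stimulated ones, and Slc29a1, Slc25a10 and Slc2a3 are dark blue in naive cells while Slc12a7 and Slc1a2 are dark red.

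The nucleoside carrier had the largest rise. Slc29a1, the equilibrative nucleoside transporter that lets cells salvage nucleosides, had log2 values of 9.21, 8.68 and 8.60 in naive cells and 12.10, 11.91, 12.65 and 12.09 in Ag-B7 cells at 48 h. The groups were far apart, with a difference of 3.36 ± 0.23 (SE, n = 3 and 4; 10.3-fold; adjusted p = 1.04e-08). This value comes from the brighter of its probe sets, and the dimmer one moved the other way (-0.95). The second nucleoside gene on the array, Slc29a2, did not pass the filter.

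Folate and copper importers rose as well. Slc19a1, the reduced folate carrier, had naive values of 9.88, 10.21 and 7.72 and Ag-B7 values of 11.19, 10.41, 11.57 and 11.59. Naive replicate 3 was far below the other naive arrays, and the highest naive array lay only just under the lowest Ag-B7 array. The difference was 1.92 ± 0.45 (adjusted p = 0.0017), and its dimmer probe set had the opposite sign. Slc31a1, which imports copper, rose from 9.38, 9.22 and 10.01 to 10.81, 11.01, 10.92 and 11.52, with no overlap (1.53 ± 0.23, adjusted p = 3.9e-05). Slc31a1 was 1 of 6 metal carriers that rose. The other 5 carry zinc: Slc39a1, Slc39a6, Slc39a7 and Slc39a9 import it into the cytosol, and Slc30a4 exports it. Their differences ran from 0.80 to 1.19. The largest, of Slc39a1, rested in part on 1 array: Ag-B7 values were 10.77, 12.38, 10.86 and 10.70 against naive values of 9.72, 9.98 and 10.26 (1.19 ± 0.39, adjusted p = 0.0142), and its dimmer probe set had the opposite sign, as did that of Slc30a4. Without naive replicate 1 the call of Slc39a1 was lost (adjusted p = 0.0515).

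Of 19 carriers of the SLC25 family, Slc25a17 of the peroxisome among them, 5 rose and 5 fell. Slc25a10, the dicarboxylate carrier, went from 7.62, 7.79 and 8.22 to 10.07, 9.96, 10.25 and 9.56. No naive array came within 1 log2 unit of an Ag-B7 array, and the difference was 2.08 ± 0.24 (4.24-fold, adjusted p = 2.59e-06). Slc25a4, an ADP/ATP translocase that hands ATP from the mitochondrion to the cytosol, went from 12.67, 11.49 and 12.30 to a narrow band of 13.78, 13.71, 13.85 and 13.65 (1.59 ± 0.21, adjusted p = 1.14e-05). Its close relative Slc25a5 rose by less (0.93 ± 0.23). The probe sets of these near-identical genes may share signal, and the dimmer probe set of Slc25a5 had the opposite sign. Slc25a39, which imports glutathione into mitochondria, rose by 1.12 ± 0.17 (adjusted p = 3.32e-05). The 5 that fell included Slc25a36, a pyrimidine nucleotide carrier, from 11.52, 10.91 and 11.83 to 10.11, 9.76, 10.19 and 10.42 (-1.30 ± 0.23), and Slc25a3, the phosphate carrier (-1.30 ± 0.38).

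Carriers of the Golgi and ER rose in 5 of 10 cases and fell in 2. Slc35a1 carries CMP-sialic acid into the Golgi. Its naive values of 7.74, 6.49 and 8.05 rose to 8.96, 9.30, 9.34 and 9.56, without overlap (1.86 ± 0.32, adjusted p = 1.43e-04). Slc37a4 carries glucose 6-phosphate into the ER. It rose from 8.97, 7.87 and 9.06 to 10.42, 10.91, 10.63 and 10.27 (1.92 ± 0.28, adjusted p = 2.93e-05). Slc35b2, Slc35e1 and Slc35e4 rose by 0.76 to 0.96. The dimmer probe set of Slc35e1 had the opposite sign, and the call of Slc35e4 was lost without naive replicate 3 (0.55, adjusted p = 0.157) and without Ag-B7 replicate 1 or 3. Slc2a3, the glucose transporter GLUT3, was the sugar carrier that rose. Its naive values were 8.73, 9.33 and 9.28, and its Ag-B7 values of 9.63, 11.90, 11.64 and 12.43 had the widest spread among the members in that group. The lowest, replicate 1, lay 0.3 above the highest naive array, and the difference was 2.29 ± 0.46 (4.88-fold, adjusted p = 5.5e-04). A second probe set of Slc2a3 had the same sign (1.67).

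Among the 21 amino acid carriers and relatives, 3 rose and 12 fell. The group was set by family, and the falls in it include relatives such as Slc6a4 and Slc66a2. Slc1a5, which exchanges glutamine and other neutral amino acids, went from 10.40, 10.03 and 10.57 to 10.68, 11.02, 11.25 and 11.63. Replicate 1 of Ag-B7 was close to the naive range, and the difference was 0.81 ± 0.25 (adjusted p = 0.0103). Slc7a6, a partner of the Slc3a2 heavy chain that exchanges cationic for neutral amino acids, had nearly equal naive values of 7.93, 7.96 and 7.83 and Ag-B7 values of 8.74, 8.71, 8.46 and 9.0 (0.82 ± 0.27, adjusted p = 0.0132). A second probe set of Slc7a6 gave 1.30. Slc6a6, the taurine transporter, rose by 0.48 ± 0.18, a call that was lost under quantile normalization (0.39). Slc16a1, the lactate and pyruvate transporter MCT1, rose from 8.66, 7.89 and 8.67 to 9.22, 8.84, 9.14 and 9.60 (0.79 ± 0.27, adjusted p = 0.0194). Of all 24 rises, 17 were called in each of the 7 fits that left out 1 array. The other 7 were Slc9b2 (lost in 5 fits), Slc6a6 (4), Slc35e4 (3), Slc16a1 (2), Slc30a4 (2), Slc39a1 (1) and Slc39a9 (1).

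**Figure D2:**
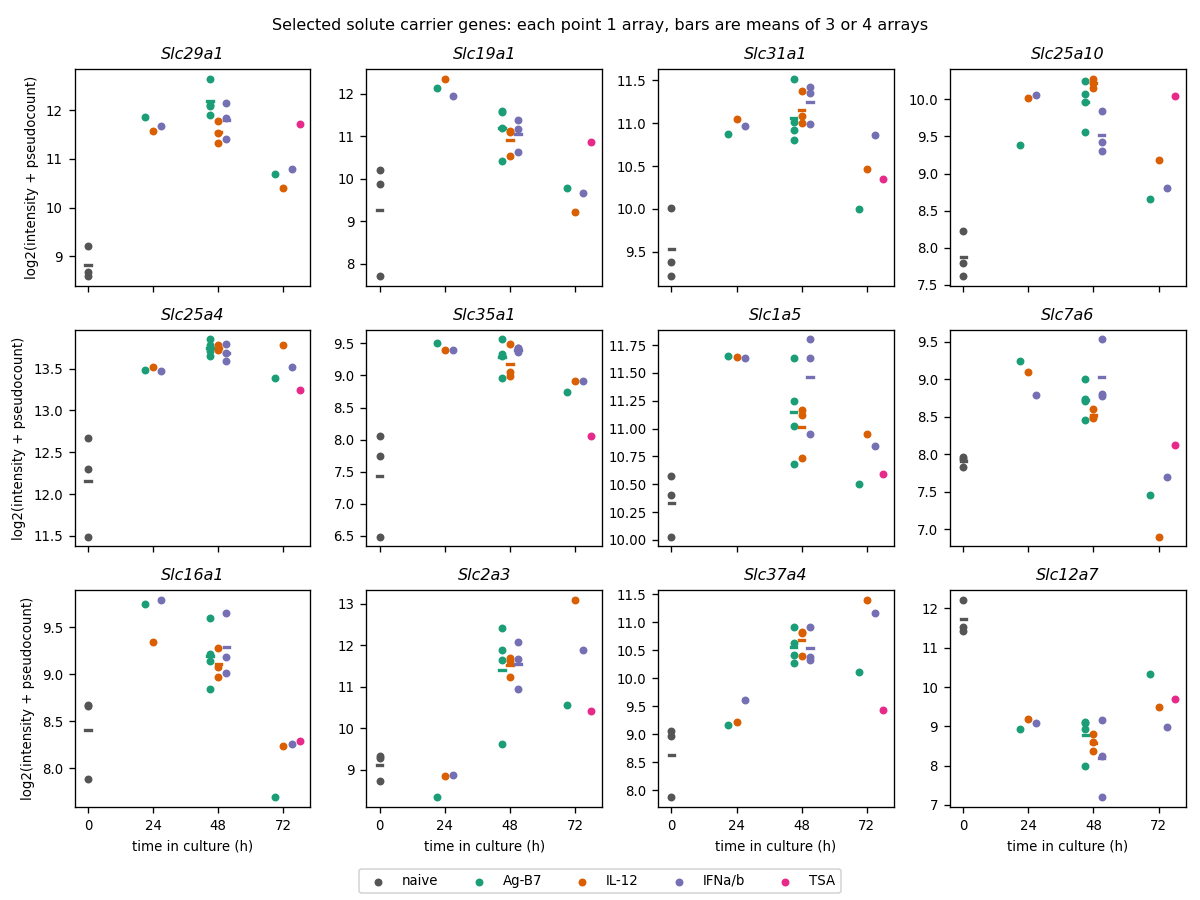
Log2 values of 12 solute carrier genes against time in culture in hours; each point is 1 array, coloured by group, and short bars are means of groups with 3 or 4 arrays. Slc29a1, Slc19a1, Slc25a10 and Slc16a1 are high at 24 h and 48 h and lower at 72 h, Slc2a3 at 24 h is still within or under its naive range, and Slc12a7 is lowest at 48 h.

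The E-box CACGTG is the core site bound by Myc and related factors, and Myc itself rose (2.45 ± 0.34, adjusted p = 1.88e-05). RefSeq promoters on GRCm38.p6, from 250 bases before to 50 after a start site, were found for 89 of the 106 members (127 promoters). The palindrome CACGTG, searched on both strands, was in 15 of the 127 (11.8%) and in 7.15% of all 32851 promoters in the table. Of 38 promoters of genes called higher at 48 h in Ag-B7 or at 24 h, 2 held it (5.26%), and of 52 promoters of genes called lower, 5 held it (9.62%). These 2 are shown, as the promoters of genes that rose and then fell at 72 h, each from 250 bases before the start site through the initial 5 bases of the transcript and with the E-box in capitals. That of Slc29a1 lies at chr17:45595242-45595496 (minus strand), with the E-box 75 bases before the start site, and that of Slc16a1 at chr3:104638414-104638668 (plus strand), with the E-box 200 bases before it. The genes were chosen after their values were seen, and a match of letters does not show that a factor binds.
Slc29a1: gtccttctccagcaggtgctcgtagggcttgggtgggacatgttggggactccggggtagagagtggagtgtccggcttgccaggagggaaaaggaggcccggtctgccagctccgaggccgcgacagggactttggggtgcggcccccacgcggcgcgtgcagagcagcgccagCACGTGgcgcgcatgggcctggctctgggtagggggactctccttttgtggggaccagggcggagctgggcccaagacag
Slc16a1: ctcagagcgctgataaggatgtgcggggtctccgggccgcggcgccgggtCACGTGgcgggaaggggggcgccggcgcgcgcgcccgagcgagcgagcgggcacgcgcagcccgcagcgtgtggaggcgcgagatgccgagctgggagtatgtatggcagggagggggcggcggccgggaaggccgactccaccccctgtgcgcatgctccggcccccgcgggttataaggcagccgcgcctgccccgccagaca

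Of the falls, the largest was that of Slc12a7, the potassium-chloride cotransporter KCC4. Its naive values of 12.21, 11.43 and 11.54 fell to 9.11, 7.99, 8.94 and 9.09, more than 2 units below the lowest naive array in every Ag-B7 sample (-2.94 ± 0.39, 7.69-fold lower, adjusted p = 1.14e-05). The other large falls were of genes best known from other tissues. They were Slc1a2, the main glutamate transporter of glia (-2.69 ± 0.48), Slc10a6, a carrier of sulphated steroids (-2.69 ± 0.47), Slc30a3, which loads zinc into synaptic vesicles (-2.31 ± 0.31), Slc4a1, the anion exchanger of red cells (-2.24 ± 0.52), Slc22a2, a kidney cation transporter (-2.21 ± 0.45), and Slc39a4, the intestinal zinc importer (-1.96 ± 0.27). Of these, Slc10a6 and Slc22a2 passed the filter only with their naive arrays. Slc30a3 had naive values of 12.13, 13.95 and 12.86 and Ag-B7 values of 10.80, 10.58, 10.93 and 10.37. Naive replicate 2, the array with the highest actin ratio, was the highest of the 3 there, as in 31 of the 45 falling members (68.9%, against 63.8% of all genes that fell). The same array was the lowest of the 3 in 12 of the 24 rising members (50%, against 60.3% of all genes that rose). The part of RNA quality in the falls and rises was not tested. Slc39a4 has a dimmer probe set that moved up by 0.95. Slc6a9, the glycine transporter GlyT1, fell from 11.16, 12.61 and 12.03 to 9.71, 10.28, 10.09 and 10.64 (-1.75 ± 0.28). Slc44a2 and Slc44a4, of the choline transporter-like family, fell by 1.19 and 1.79. Slc11a2, which imports iron, fell by 1.20, from 10.65, 11.33 and 10.93 to 10.04, 9.55, 9.86 and 9.62. Slc38a2, a glutamine carrier, fell by 1.16, from 11.84, 11.02 and 11.74 to 10.61, 10.05, 9.90 and 10.94.

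How many of these falls were called depended on how arrays were scaled to each other. Quantile normalization kept 27 of the 45, centring on the median kept 16, and scaling on the spike-in controls kept 3 (Slc10a6, Slc12a7 and Slc1a2). Over all genes the falls went from 2236 to 1637, 943 and 95 in the same order. The mean log2 intensity of the spike-in controls was itself uneven: 13.389, 14.861 and 14.525 on naive replicates 1, 2 and 3. On stimulated arrays it ran from 12.135 to 13.166. How far this spread among naive arrays, apart from a shift of all genes, cost calls was not tested. Of the 3 kept under spike-in scaling, Slc10a6 passed the filter only with its naive arrays, so its fall is partly built into the rule. The median of all genes moved from -0.23 as deposited to 0.03 (quantile), 0.43 (median) and 1.30 (spike-in), so a fall is a fall relative to that median. Because all 3 scalings shift that median upward, the 23 of 24 rises called under each of them are no check of the rises. Under spike-in scaling 3 of the falls were called higher (Slc10a3, Slc23a2 and Slc25a20). Other falls had a positive difference there without a call, Slc50a1 (0.93) and Slc2a8 (0.64) among them. Brightness bears on them too: 25 of the 45 had a naive mean at or under 10.23, the 90th percentile of the control probe sets without a target, and 20 lay above it, Slc12a7, Slc30a3, Slc39a4, Slc6a9, Slc44a2, Slc11a2 and Slc38a2 among them. Slc1a2, Slc10a6, Slc4a1 and Slc22a2 lay under it. Of the 24 rises, 15 had a naive or Ag-B7 mean above 10.23. Slc7a6, Slc16a1, Slc35a1 and Slc9b2 were among those that did not. The part of this background in the falls and rises was not tested.

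**Figure D3:**
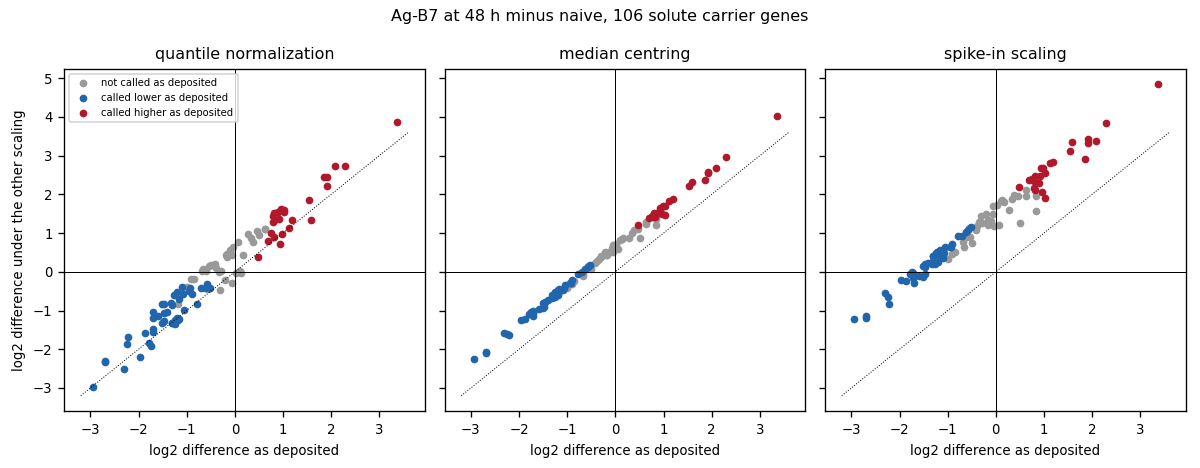
Difference in log2 value between Ag-B7 cells at 48 h and naive cells for the 106 solute carrier genes, as deposited (x axis) and under 3 other scalings (y axis); the dotted line marks equal values. The points move up together, as the median of all genes does (from -0.23 to 0.03, 0.43 and 1.30), and many genes called lower as deposited (blue) come to 0 or above under median centring and spike-in scaling.

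Markers of other cells fell along with these genes. Of 8 myeloid and dendritic cell markers tested, 7 were lower at 48 h in Ag-B7 and none higher, and their summed intensity was 14752 to 18967 in naive cells and 2615 to 5263 at 48 h. Of 7 B cell markers, 5 were lower and 1 higher, and all 3 stromal markers were lower. Summed erythroid and platelet markers were 6322 to 14545 in naive cells and 429 to 826 at 48 h, with 1 of 2 tested called lower. None of the markers was listed at 0. Of 10 CD8 T cell markers tested, 3 were lower and 1 higher, and of all genes 35.6% were lower. The marker calls rest on the same naive arrays and the deposited scaling, with the limits given above. Slc4a1 belongs to red cells, and Slc11a1, a metal carrier of macrophage phagosomes, had naive values of 7.99, 9.24 and 8.60 and Ag-B7 values of 7.54, 8.11, 8.55 and 7.51 (-0.68 ± 0.39, not called). The part of other cells in the members' falls was not tested. In these bulk samples fewer cells of a type and less RNA per cell cannot be told apart.

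The promoter of Slc12a7 is shown because the gene had the largest fall and returned in part at 72 h. It lies at chr13:73763410-73763664 (plus strand, GRCm38.p6), from 250 bases before the start site through the initial 5 bases of the transcript. Its E-box, in capitals, begins 1 base before that site. Here too a match of letters does not show that a factor binds.
Slc12a7: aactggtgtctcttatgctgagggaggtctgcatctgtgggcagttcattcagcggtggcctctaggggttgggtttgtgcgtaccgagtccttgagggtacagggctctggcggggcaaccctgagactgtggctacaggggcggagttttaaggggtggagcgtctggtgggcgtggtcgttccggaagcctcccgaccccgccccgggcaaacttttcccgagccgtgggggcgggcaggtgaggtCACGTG

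By 24 h most of these changes were in place. Both times are set against the same 3 naive arrays, so the limits of those arrays are shared. With time tested as an average over the 3 stimuli, 23 members were higher at 24 h than in naive cells and 43 lower, where 27.5% of all genes were higher and 40.1% lower. Of the 43 falls, quantile normalization kept 30, median centring 21 and spike-in scaling 0, while the falls over all genes went from 2517 to 1773, 1020 and 96. Between 24 h and 48 h few moved: 3 rose and 2 fell, where 4.2% of all genes rose and 2.99% fell. The 24 h groups had 1 array each, and the test assumes a like course under the 3 stimuli.

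Slc19a1 stood at 12.13, 12.35 and 11.95 on the 24 h arrays (Ag-B7, Ag-B7+IL12 and Ag-B7+IFNa/b), above all 10 arrays at 48 h, which ran from 10.41 to 11.59. Its step from 24 h to 48 h was -1.09 ± 0.35 and was not called (adjusted p = 0.0673). Its 24 h difference from naive cells was 2.87, equal to that of Slc29a1, whose 24 h values were 11.86, 11.58 and 11.67. Slc1a5 stood at 11.65, 11.64 and 11.63, and the 10 arrays at 48 h spread from 10.68 to 11.80 around it. Called higher at 24 h but not in Ag-B7 cells at 48 h were the cationic amino acid transporters Slc7a1 (1.32, adjusted p = 0.0398) and Slc7a3 (1.48, adjusted p = 0.0416), the neutral amino acid carrier Slc1a4 (1.25, adjusted p = 0.00964), Slc5a6, which imports biotin and pantothenate (0.99, adjusted p = 0.0324), and Slc35c2, a Golgi carrier linked to fucosylation (0.88, adjusted p = 9.55e-04). The 24 h call averages the 3 stimuli and the 48 h call uses Ag-B7 alone, so they are not like for like. On the IL-12 and IFNa/b arrays at 48 h Slc1a4 stood at 9.56 to 10.54, above its naive values of 8.59 to 9.22. Slc7a1, Slc7a3, Slc5a6 and Slc35c2 overlapped their naive values there. The naive values of Slc7a1 (6.02, 6.73 and 6.66) lay under 7.56, the naive median of the control probe sets without a target. In Ag-B7 alone at 48 h Slc1a4 was called higher than in naive cells under the other 3 scalings (1.05 to 1.95). Slc7a1 and Slc7a3 were called higher under spike-in scaling (1.27 and 1.96). Under these scalings all genes stand higher. The calls of Slc7a1, Slc7a3 and Slc5a6 were each lost in 4 of the 6 fits that left out 1 array, those without naive replicate 1, naive replicate 3, the Ag-B7 array or the Ag-B7+IL12 array at 24 h (largest adjusted p = 0.159, 0.29 and 0.18). Without naive replicate 3 the difference of Slc7a3 was 0.74. Without the Ag-B7 array at 24 h the call of Slc1a4 was lost as well (adjusted p = 0.0787). Of these 5 genes, only Slc35c2 was called lower at 48 h than at 24 h (10.58, 10.71 and 10.68 at 24 h, 9.62 to 10.26 at 48 h), and that call was lost when any 1 of the 24 h arrays was left out (largest adjusted p = 0.142).

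Slc2a3 and Slc37a4 rose after 24 h. Slc2a3 stood at 8.33, 8.85 and 8.88 at 24 h, within or under its naive range, and the 10 arrays at 48 h lay between 9.63 and 12.43. The step was 2.83 ± 0.42 by the fit over the 3 stimuli (adjusted p = 0.000308), and it was called in each of the 13 fits that left out 1 array. Slc37a4 followed the same order, at 9.16, 9.22 and 9.61 at 24 h and 10.27 to 10.92 at 48 h. Its call and that of the third rise, Slc25a36, were lost without the Ag-B7+IL12 array at 24 h (adjusted p = 0.063 and 0.0731). Slc10a3 was the other member that fell in this step, from 10.89, 10.84 and 10.71 to between 9.52 and 10.29. Slc2a1, the glucose transporter GLUT1 set apart from the members, was higher at 24 h already (2.37 ± 0.42).

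From 48 h to 72 h, 11 members rose and 15 fell, where 16.3% of all genes rose and 13.5% fell. The falls included carriers called higher than in naive cells at the earlier times. Slc7a6 went from between 8.46 and 9.53 on 10 arrays to 7.46, 6.90 and 7.70 on the 3 arrays of Ag-B7, Ag-B7+IL12 and Ag-B7+IFNa/b, under all its naive values (-1.40 ± 0.22, adjusted p = 6.3e-05). Slc29a1 went from between 11.33 and 12.65 to 10.70, 10.41 and 10.79, still above naive cells (-1.22 ± 0.18, adjusted p = 4.3e-05). Slc16a1 went from between 8.84 and 9.65 to 7.69, 8.24 and 8.26 (-1.14 ± 0.22, adjusted p = 4.68e-04). In all 3 genes the 72 h arrays lay below every 48 h array. The mean of the probe sets of Slc29a1 gave -0.31, which was not called.

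Slc19a1 fell to 9.78, 9.21 and 9.66, inside its naive range (-1.50 ± 0.35, adjusted p = 0.003). Slc25a10 fell to 8.66, 9.18 and 8.81 (-1.03 ± 0.20, adjusted p = 7.27e-04). Slc5a6 had the largest fall of the step, to 6.68, 6.38 and 7.75 from between 7.69 and 9.16 (-1.51 ± 0.32, adjusted p = 0.00116), with the Ag-B7+IFNa/b array still inside the 48 h range. Slc35e1, an orphan carrier of the Golgi family, fell by 1.13 ± 0.19. These 7 were called under all 4 scalings and in each fit that left out 1 array. Quantile normalization and median centring lower the median of all genes in this step, from 0.15 to 0.02 and -0.13. They are therefore no check of the falls. Under spike-in scaling that median was 0.19. Slc31a1, Slc39a7, Slc30a5, Slc25a39, Slc12a2, Slc20a1, Slc25a15 and Slc35b1 also fell, by 0.46 to 0.73. The dimmer probe sets of Slc29a1, Slc11a2 and Slc2a8 had the sign opposite to the call.

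Of the 11 rises at 72 h, Slc44a2 went from between 9.21 and 10.52 to 11.09, 10.47 and 11.02 (0.96 ± 0.19, adjusted p = 7.06e-04). It was the only 1 called under quantile normalization and median centring as well. Slc12a7 returned in part, to 10.33, 9.50 and 8.97, of which the Ag-B7+IFNa/b array lay inside the 48 h range (1.08 ± 0.32, adjusted p = 0.0141). Slc25a20, which carries acylcarnitines into mitochondria for fatty acid oxidation, went from between 9.38 and 9.86 to 10.76, 10.20 and 10.14, above all 48 h arrays (0.77 ± 0.16, adjusted p = 0.00118). Slc50a1, a sugar transporter, rose by 0.67 ± 0.14 and Slc11a2 by 0.83 ± 0.21. Under spike-in scaling none of the 11 was called, and over all genes the rises went from 1026 to 366. Left without the Ag-B7 array at 72 h, 4 of the rises were called, and without the Ag-B7+IL12 array, 5.

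**Figure D4:**
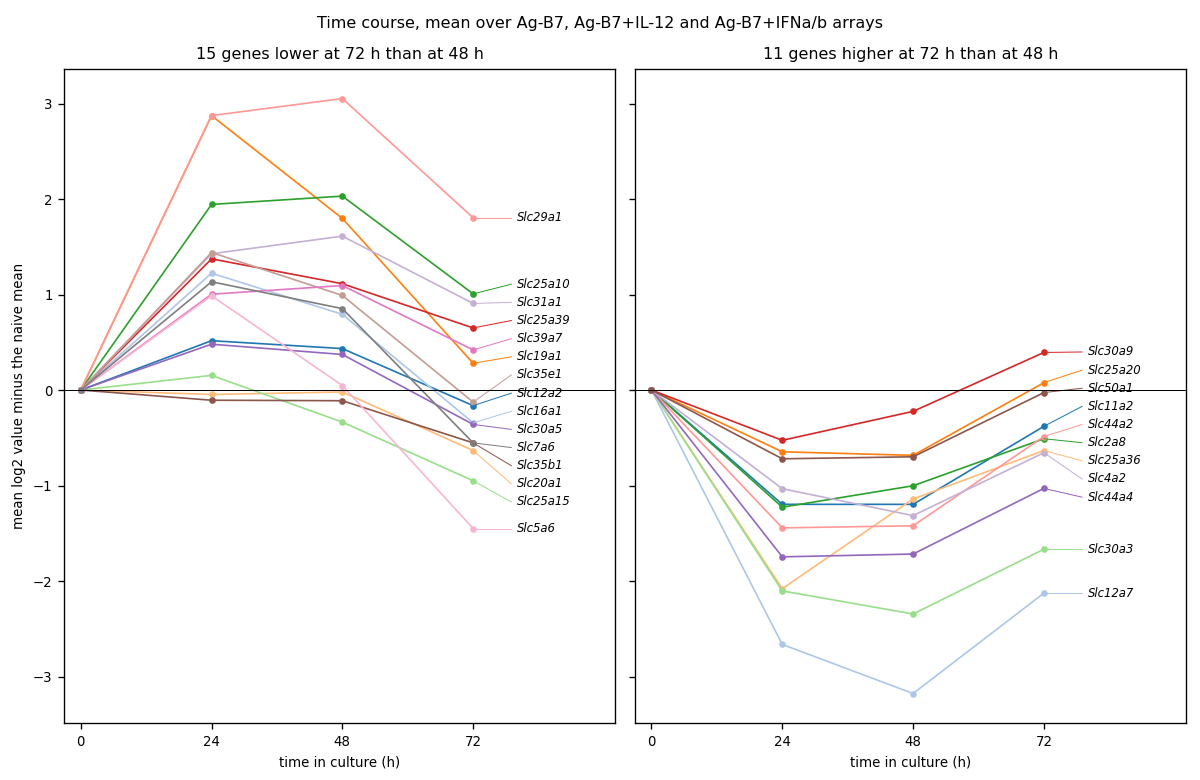
Mean log2 value minus the naive mean against time in hours, averaged over the Ag-B7, Ag-B7+IL12 and Ag-B7+IFNa/b arrays (3 at 0 h, 3 at 24 h, 10 at 48 h, 3 at 72 h), for the 15 solute carriers lower (left) and the 11 higher (right) at 72 h than at 48 h. Slc29a1, Slc19a1 and Slc25a10 rise early and turn down at 72 h, and Slc12a7, Slc44a2 and Slc11a2 do the reverse.

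Adding a cytokine changed no solute carrier detectably at 48 h. With IL-12, 0 members were called, where 0.382% of all genes were higher and 0.239% lower. The unadjusted limma p was under 0.05 for 6 members (5.66%, against 5.8% of all genes), 1 up and 5 down. With IFNa/b, 0 members were called, where 0.414% of all genes were higher and 0.0159% lower, and the unadjusted p was under 0.05 for 3 members (2.83%, against 4.55% of all genes), 1 up and 2 down. Between IL-12 and IFNa/b, 0 were called (0.287% and 0.653% of all genes), with 2 members at the unadjusted p (1.89%, against 4.83% of all genes), both higher with IL-12. The Ag-B7 arrays are shared by the first 2 of these comparisons. The median SE of a member's difference was 0.31, and the 95% interval lay within 2-fold either way for 66 members with IL-12 and 69 with IFNa/b, and for the others it reached past 2-fold.

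The largest of these differences was that of Slc7a1 with IFNa/b, at 7.90, 7.95 and 8.50 against 6.37, 5.91, 7.48 and 8.19 in Ag-B7 (1.13, 95% interval -0.01 to 2.27, adjusted p = 1). Its Ag-B7 arrays spread widely and overlapped the others. Slc44a1, of the choline transporter-like family, differed by -1.0 with IL-12 and with IFNa/b (interval -1.93 to -0.07 in both). Slc48a1 differed by 0.84 with IL-12 (interval -0.02 to 1.71). Slc29a1 with IL-12 stood at 11.33, 11.53 and 11.79, below all 4 Ag-B7 arrays, with a difference of -0.64 and a 95% interval of -1.13 to -0.15 (adjusted p = 0.497). Slc1a4 with IFNa/b stood at 9.95, 9.90 and 10.54 against 8.89, 8.87, 9.52 and 9.93 in Ag-B7, a difference of 0.83 with an interval of 0.22 to 1.43 (adjusted p = 0.584) and with overlap of the groups. Slc9b2, a sodium-proton exchanger, stood at 7.25, 6.16 and 7.11 with IL-12 against 8.10, 7.23, 8.36 and 7.79 (-1.03, interval -1.93 to -0.14). Slc25a10 was higher with IL-12 (10.28, 10.22 and 10.15) than with IFNa/b (9.84, 9.31 and 9.43) on every array, by 0.69 with an interval of 0.15 to 1.23 (adjusted p = 0.58).

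Several amino acid carriers and Slc2a3 varied among the 4 Ag-B7 replicates themselves. The range over these arrays was 2.80 for Slc2a3, 2.29 for Slc7a1 and 2.24 for Slc7a3, against a median of 0.75 over the 106 members. Slc7a1 stood at 6.37, 5.91, 7.48 and 8.19, Slc7a3 at 8.04, 8.77, 8.98 and 10.28 and Slc1a4 at 8.89, 8.87, 9.52 and 9.93. In all 3 genes replicates 3 and 4 were above replicates 1 and 2. These ranges bear on the single arrays at 72 h. Replicates 1 and 2 of Slc7a1 lay under 6.74, the median of the control probe sets without a target in Ag-B7 at 48 h.

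At 24 h the cytokine arrays differed little from Ag-B7 alone. With IL-12, 3 members were at least 2-fold higher and 3 lower (2.15% and 1.27% of all genes). With IFNa/b, 0 were higher and 0 lower (1.69% and 1.21%). The largest difference was that of Slc1a2 with IL-12 (1.35, from 6.86 to 8.21). There is 1 array a group and no replicate check here or at 72 h.

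At 72 h Slc1a4, Slc7a1, Slc7a3, Slc2a3 and Slc37a4 were at least 2-fold lower on the array with Ag-B7 alone than on both cytokine arrays. Other amino acid and sugar carriers were not: Slc38a4 differed by -0.12 with IL-12 and -1.11 with IFNa/b, and Slc2a8 by -0.04 and -0.09. With IL-12, 10 members were at least 2-fold higher than on that array and 2 lower (5.22% and 4.14% of all genes). With IFNa/b, 7 were higher and 7 lower (3.93% and 3.57%). All these comparisons use the same single Ag-B7 array. Slc1a4 stood at 7.76 in Ag-B7, 10.54 with IL-12 and 10.31 with IFNa/b. The Ag-B7 value lay below all other 19 arrays. Slc7a3 stood at 6.91, 9.20 and 9.68, and Slc7a1 at 6.38, 7.96 and 8.31. For Slc7a1 the gaps of 1.59 and 1.93 were narrower than its range of 2.29 within Ag-B7 at 48 h. For Slc7a3 the gaps of 2.29 and 2.77 were wider than its range of 2.24, and for Slc1a4 those of 2.79 and 2.55 were wider than its range of 1.06. Slc2a3 stood at 10.55, 13.09 and 11.89, and Slc37a4 at 10.10, 11.39 and 11.17. For Slc2a3 the gaps of 2.54 and 1.35 were narrower than its range of 2.80, the widest among the members. For Slc37a4 those of 1.29 and 1.07 were wider than its range of 0.65. The haem transporter Slc48a1 stood at 8.23, 9.60 and 9.86. Slc12a7 stood at 10.33 in Ag-B7 alone, 9.50 with IL-12 and 8.97 with IFNa/b.

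The promoter of Slc1a4 is shown because this gene differed most on the IL-12 array at 72 h. It holds the letters TGATGNAA, a composite site bound by ATF4 in genes of amino acid supply, on the minus strand relative to the gene. These letters were in 3.97% of all promoters, in 3 of the members' 127 (2.36%), and in no other promoter of the genes called higher at 48 h in Ag-B7 or at 24 h (1 of 38, 2.63%). The window lies at chr11:20332709-20332963 (minus strand, GRCm38.p6) and covers the same span, with the match in capitals beginning 4 bases before that site. The interferon response element was in 3.44% of all promoters and in 1 of the members' 127 (0.787%). Slc1a4 was chosen after its values were seen, and a match of letters does not show that a factor binds.
Slc1a4: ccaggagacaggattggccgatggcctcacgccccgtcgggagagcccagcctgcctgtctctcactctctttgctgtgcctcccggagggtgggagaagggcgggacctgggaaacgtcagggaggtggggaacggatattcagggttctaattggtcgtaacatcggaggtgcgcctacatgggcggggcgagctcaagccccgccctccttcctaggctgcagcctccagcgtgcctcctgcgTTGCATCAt

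On the Ag-B7+TSA array 13 members were at least 2-fold higher than on the Ag-B7 array at 72 h and 3 lower (7.09% and 8.97% of all genes). Slc48a1 stood at 10.62, the highest of the 20 arrays. It was also at least 2-fold above Ag-B7 alone with IL-12 and with IFNa/b, as were Slc1a4 (1.71 with trichostatin A) and Slc7a3 (1.16). Slc25a10 stood at 10.04, Slc19a1 at 10.87, Slc29a1 at 11.71 and Slc5a6 at 8.37, each at least 1 log2 unit above Ag-B7 alone and inside its 48 h range. Slc2a3 stood at 10.42 and Slc37a4 at 9.43, both below the Ag-B7 array. Slc7a1 stood at 5.96 and Slc1a4 at 9.47. Set against IL-12 at 72 h, 12 members were higher and 11 lower with trichostatin A (8.6% and 9.87% of all genes), and against IFNa/b 12 and 8 (7.31% and 9.08%). Slc2a3 was 2.67 lower than with IL-12, the widest gap of that comparison, and Slc9b2 (6.11) was 1.74 below Ag-B7 alone.

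**Figure D5:**
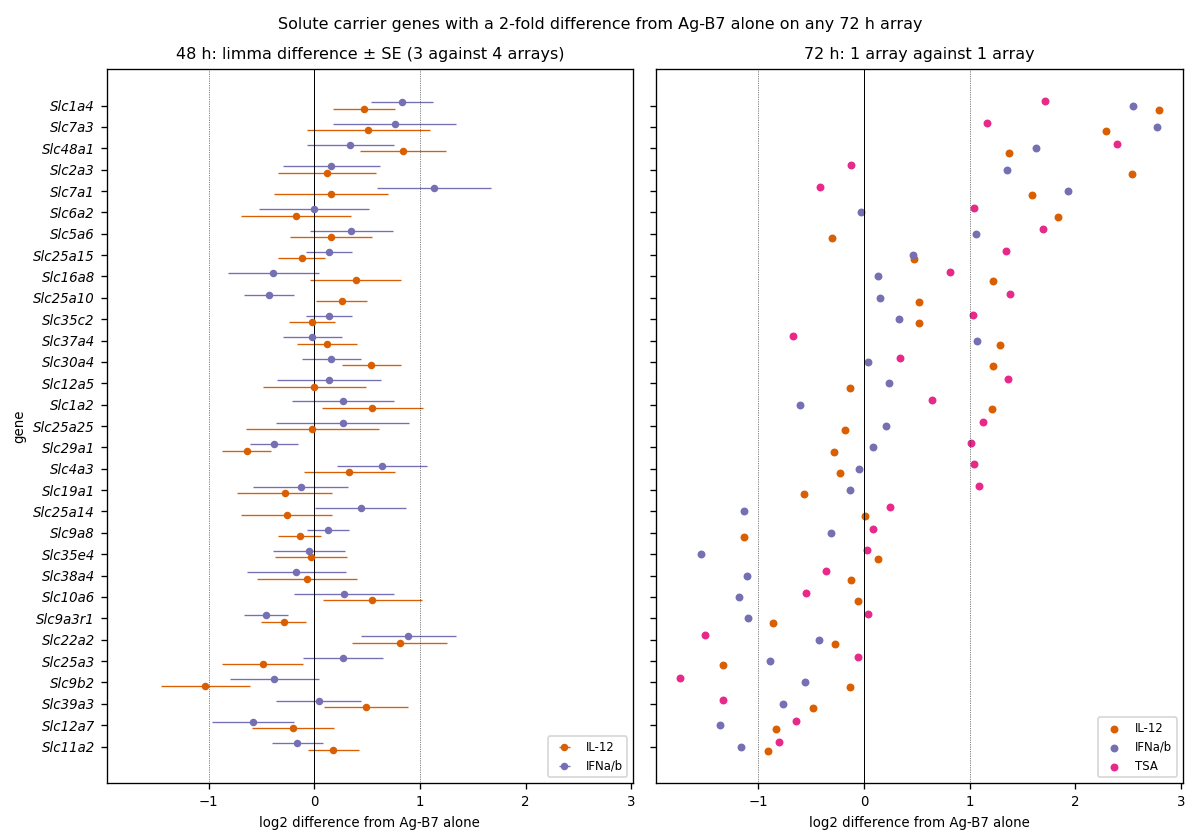
Log2 difference from Ag-B7 alone for the 31 solute carriers with a 2-fold difference (dotted lines) on any 72 h array: left, the 48 h differences with their standard errors (3 against 4 arrays); right, single arrays at 72 h, all set against the same Ag-B7 array. Slc1a4, Slc7a3, Slc7a1 and Slc2a3 lie far to the right with IL-12 and IFNa/b at 72 h and nearer to 0 at 48 h.

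The other genes of nutrient uptake and use gave the setting for these values. Of the 3 transporters set apart, Slc2a1 (3.04 ± 0.33) and Slc7a5, the large neutral amino acid transporter (1.01 ± 0.36), rose in Ag-B7 cells at 48 h, and Slc3a2, the heavy chain that pairs with Slc7a5, did not pass the test (-0.29 ± 0.29). Bsg, the chaperone that brings Slc16a1 to the plasma membrane, rose by 3.23 ± 0.28. Of 9 partner genes tested 3 rose and 4 fell. The zinc-binding metallothionein Mt1 rose by 3.73 ± 0.58. Of 15 regulators 5 rose, among them Myc, and 6 fell, Klf2 (-4.08) and Sgk1 (-2.30) among them. Of 26 enzymes that use the imported nutrients 17 rose and 4 fell, with Bcat1, which transaminates branched-chain amino acids, at 3.85, Psat1 of serine synthesis at 3.49, hexokinase Hk2 at 3.37 and thymidine kinase Tk1, which acts on imported thymidine, at 3.27. From 48 h to 72 h, 0 of these enzymes rose and 12 fell.

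On the single 72 h arrays these genes differed in both directions from the same Ag-B7 array. Those named here were chosen after their values were seen, and no cause was tested. With IL-12 and IFNa/b, Mt1 was higher (3.69 and 2.81), as was Hk2 (2.84 and 2.41). Klf2 (-3.18 and -1.63) and Txnip (-2.18 and -2.25) were lower. Slc7a5 was 2.28 higher with IL-12 and 1.99 higher with IFNa/b than on the Ag-B7 array, Atf4 2.00 and 1.58, and Asns, the asparagine synthetase, 2.38 and 2.41. With trichostatin A Slc7a5 was 2.09 higher, Atf4 0.62 higher and Asns 0.69 lower.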

How the data were processed

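The authors deposited an intensity for each probe set on each array, computed with MAS5 per the submitters' processing notes. The MAS5 version and target level are not given in these sources. Per the labels' protocols, biotinylated cRNA was made from 10 ug of total RNA. A trimmed mean near 1000 on every array (999.8 to 999.9) shows that the authors scaled the arrays to a common level, which hides a change of total RNA. The number of arrays limits the precision. Gene names came from the platform annotation, in which 10833 of 12488 probe sets had 1 symbol and 396 several (not used). Each gene was represented by its brightest probe set.

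From the deposited intensity the value log2(intensity + 46.39) was computed, the pseudocount being the median over arrays of the 20th percentile. Limma 3.58.1 (R 4.3.3; lmFit, eBayes with an intensity trend) was fitted in a model of the 13 naive and 48 h arrays (residual df 9) and in a model of 19 arrays with time and stimulus (residual df 13). Tests were two-sided, Benjamini-Hochberg adjusted over 6279 genes and called under 0.05. Groups with 1 array gave differences with no test, counted at 2-fold. Scripts were tested on simulated data. The members, role groups and lists were chosen with earlier results of these data known. The genes named were the called members with the 10 largest rises and the 10 largest falls of each comparison, the leading member of each role group, the extremes of the single arrays and a list of well-known carriers; other names were added after values were seen. Pseudocount, filter, scaling, probe set, trend, replicate block and array left out were varied. Same-numbered Ag-B7 and Ag-B7+IL12 replicates at 48 h deviated together (correlations of 0.276 to 0.280 over genes), which pairs them by the rule used; other groups did not pass it. Promoters came from RefSeq on GRCm38.p6.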

Additional observations from a re-analysis of the deposited data

Results flagged for a closer look

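Of the 60 named solute carriers, 2 had an array far from the other 3 in the Ag-B7 group at 48 h; chance alone flags about 1 in 20 groups. Slc12a7 stood at 7.99 on replicate 2 against 8.94 to 9.11 on the others, so that the gap took 0.843 of the group's range. Slc39a1, a zinc importer, stood at 12.38 on replicate 2 against 10.70 to 10.86, a gap of 0.902 of the range; replicate 1 of Ag-B7+IFNa/b stood high too (12.02).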

How the results depend on the processing

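The array scaling moved the counts most; the cause was not tested. Against naive cells at 48 h in Ag-B7, spike-in scaling gave 55 rises, and the falls came to 27 under quantile normalization, 16 under median centring, 3 under spike-in scaling and 27 under the 60th percentile filter, which left 67 members. At 24 h the rises came to 42 (median centring) and 65 (spike-in scaling), where 2793 and 3954 of all genes rose. The falls came to 21 and 0, where 1020 and 96 of all genes fell. With no filter 65 of 148 fell, and with the 60th percentile filter 22 of 67. From 24 h to 48 h, spike-in scaling gave 1 rise and 1 fall and median centring 5 falls. Over all genes spike-in scaling gave 42 rises and 38 falls, and median centring 238 falls. From 48 h to 72 h the rises came to 6 (quantile), 1 (median), 0 (spike-in) and 7 (mean of all probe sets), and the falls to 23 (median) and 7 (spike-in). Over all genes the rises came to 725 (quantile), 347 (median) and 366 (spike-in), and the falls to 1241 (median) and 238 (spike-in). Spike-in scaling moves the median of all genes at 48 h to 1.30, and with it named genes in Ag-B7 changed sign: Slc9a3r1 (1.71), Slc20a1 (1.49), Slc35b1 (1.44), Slc48a1 (1.27), Slc38a2 (0.57), Slc11a2 (0.51), Slc25a3 (0.27), Slc16a8 (0.21) and Slc9a3r2 (0.12); so did Slc9a3r1 under median centring (0.68). Genes not named for this comparison changed sign too, Slc10a3, Slc23a2 and Slc25a20 among them. Leaving out 1 array at a time gave 19 to 24 rises and 38 to 43 falls at 48 h, 18 to 27 and 38 to 45 at 24 h, 1 to 4 and 1 to 3 from 24 h to 48 h (1 rise without the Ag-B7+IL12 array at 24 h), 4 to 11 and 11 to 16 from 48 h to 72 h, and 0 for the cytokines at 48 h. With the replicate block, 21 rose and 44 fell at 48 h, 24 and 37 at 24 h, 3 and 4 from 24 h to 48 h, and 12 and 12 from 48 h to 72 h; the paired Ag-B7 and Ag-B7+IL12 samples still gave 0. Over the named genes, 1482 of the alternative values kept direction and side of the threshold, 142 lost the call, 18 gained it and 10 reversed, as listed above. Genes near background are limited by the signal of probe sets without a target.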

Other observations

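The role groups differed in how many of their genes were bright enough to keep: all 17 metal and haem carriers and 19 of 20 SLC25 carriers passed, against 10 of 22 organic ion, fatty acid, urea and vesicular carriers. Of the 106 members, 20 were called in none of the 7 tested comparisons. The narrowest range over the 20 arrays among them was that of Slc38a10, an amino acid carrier relative, at 10.59 to 11.30, followed by Slc25a1, the mitochondrial citrate carrier that supplies acetyl units for fatty acid synthesis, at 10.72 to 11.56. Slc25a17, a carrier of the peroxisome, had a range of 0.98. In Ag-B7 at 48 h against naive cells these 3 differed by 0.02 ± 0.19, 0.10 ± 0.19 and 0.13 ± 0.22 (SE). Under spike-in scaling Slc25a17 was called higher (1.86), as were 55 of the members and 3781 of all 6279 genes.

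Slc25a25, the mitochondrial ATP-magnesium/phosphate carrier that responds to calcium, was among the most variable between replicates, with a range of 2.51 over the 4 Ag-B7 arrays at 48 h (7.58 to 10.09). It was called in none of the comparisons.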
